A study of Caenorhabditis elegans with 6 samples.

Results

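The genes described here encode the FMRFamide-like peptides (flp) and the neuropeptide-like proteins (nlp) of Caenorhabditis elegans. They were chosen by identifier, as WBGene00001444 to WBGene00001471 for flp and WBGene00003739 to WBGene00003785 for nlp, which makes 75 identifiers. Of these, 54 carried a flp or nlp name (flp-1 to flp-21 and nlp-1 to nlp-33), 15 carried another name and 6 carried none in the annotation. The deposited table listed 26 of the 75 identifiers among its 5739 genes. It listed 22 of the 54 genes with a flp or nlp name, 7 of 21 flp genes and 15 of 33 nlp genes. The other 4 listed identifiers were nmy-1 and nmy-2, which encode non-muscle myosin heavy chains, nnt-1 and nos-3, and they are kept apart from the peptide genes below. WBGene00003748 is spelled npl-10 in the Ensembl names and is called nlp-10 here, as in RefSeq.

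Neuropeptides are cut from larger precursor proteins by convertases, trimmed, often amidated at the C-terminus, stored in dense-core vesicles and released to act on receptors, most of them coupled to G proteins. The flp genes encode peptides that end in Arg-Phe-amide, whereas nlp is a collective name for peptide precursors that belong neither to this family nor to the insulins. Some nlp genes, among them nlp-29 and nlp-31, are best known as antimicrobial peptide genes of the epidermis that are induced by fungal infection and wounding.

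Messenger RNA bound to neuronal ribosomes was purified from whole worms at the last larval stage (L4), grown at 20 degrees, and sequenced. The study asked how the neuronal set of translated messages differs in worms without alg-2, which encodes an Argonaute protein that binds microRNAs. There were 3 libraries from worms carrying the alg-2(ok304) allele and 3 from worms wild type for alg-2. All 6 came from strains with the same named single-copy insertion, in which the pan-neuronal rgef-1 promoter drives tagged RPL-18, a ribosomal protein. In the study's strain list the tag of the wild-type strain is FLAG, to which the beads were directed, and that of the mutant strain is written as HA. The allele was carried by the whole animal and not by neurons alone, and each library was made from a large pooled population. In the deposited table the mutant columns are headed as alg-1 knockouts, a name found in none of the labels. The groups are called here as the labels and the strain list give them.

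The library columns did not hold counts. Within a group, every gene had the same ratio between any pair of columns, so the columns are fitted values of a model, a group level multiplied by a library factor. Relative to library 1 of its group, the other libraries stood at 1.17 and 2.24 in alg-2(ok304) and at 1.397 and 1.52 in wild type, for all genes alike. No spread between replicates or SD can be computed from such columns, and no test was run on them. The p-values and FDR that the authors deposited for the comparison were not used. Every difference below is therefore a description without an error, with n = 3 libraries per group throughout. The columns summed to between 4769250 and 10706566 fitted reads, hereafter reads, in alg-2(ok304) and to between 11656552 and 17692391 in wild type. Ribosomal RNA genes took 85.1% of this sum in alg-2(ok304) and 97.9% in wild type. The groups therefore had to be put on a common scale, on which a gene with no change had 2.95 times as many reads in alg-2(ok304) as in wild type (1.56 on the log2 scale). This scale was estimated from the average log2 CPM (counts scaled to library size) that the authors give for each gene. In each group the gene with the lowest average CPM per read alone set it. Relative to this scale, the median log2 ratio over all listed genes above 0 in both groups was 0.37. Ratios are given relative to this scale. The alg-2 gene itself had 11.1 reads over the 3 alg-2(ok304) libraries and 16.6 over the 3 wild-type libraries, a relative log2 ratio of -2.14, but reads on parts of a gene outside a deletion are also counted, so this does not check the labels. The name of the table states a filter of above 1 CPM in at least 2 libraries. If the average covered these 6 libraries alone, this filter would put every average above -1.58 on the log2 scale. In 3395 of the 5739 genes, 18 of the 22 peptide genes among them, the average was below that value. Which libraries the average covers is not given in the sources used here, so these values do not show how the filter was applied. A gene that is not listed cannot be read as a gene without message.

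Of 15 neuron markers 5 (33.3%) were listed, beside 27.3% of all annotated protein-coding genes, summing to 60.3 reads in alg-2(ok304) and 9.61 reads in wild type, while rab-3, unc-64, snt-1, unc-31, rgef-1, egl-3 and ida-1 were among the 10 that were not. All 8 markers of the hypodermis, the worm's epidermis, were listed and summed to 1350 reads in alg-2(ok304), 305 to 686 a library, and to 600.3 reads in wild type, 153 to 233 a library, with col-19 at 0 in both groups. Body wall muscle had 8 of 8 markers listed, with 892 and 534 reads, the intestine 7 of 8 with 675 and 148 reads, germline and sperm 6 of 8 with 31.6 and 9.73 reads, and glia 1 of 6 with 0 and 30.3 reads, in each case alg-2(ok304) before wild type. In sequenced RNA of this kind, fewer cells of a type and less message per cell cannot be told apart. How much of any value came from cells other than neurons was not tested, nor was a difference in purification between the groups.

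**Figure D1:**
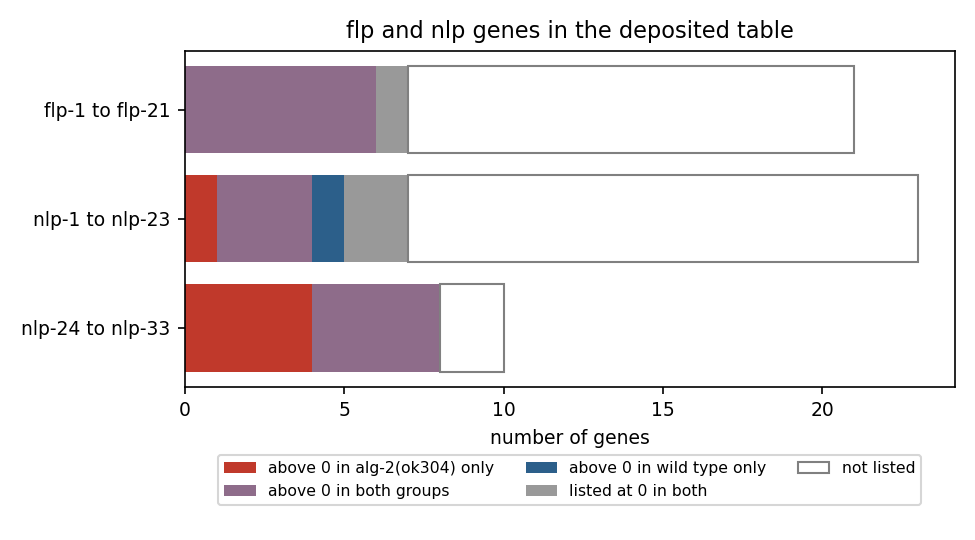
Number of flp and nlp genes (horizontal axis) by family, split into genes above 0 in alg-2(ok304) only, in both groups, in wild type only, listed at 0 in both groups, and not listed. Of the 10 genes nlp-24 to nlp-33, 8 were listed, against 7 of 23 for nlp-1 to nlp-23 and 7 of 21 for flp.

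The peptide genes were listed unevenly. Of the 54 genes, 40.7% were listed, beside a background of 27.3% of all annotated protein-coding genes. The share was 33.3% for flp, 30.4% for nlp-1 to nlp-23 and 80% for nlp-24 to nlp-33, as the plot of listed genes by family shows. Among the genes not listed were flp-1, flp-11, flp-13, flp-18 and flp-21, the last a ligand of the receptor NPR-1, and nlp-12, which encodes cholecystokinin-like peptides. By position, 10 of 13 genes on chromosome V were listed, 8 of them from nlp-24 to nlp-33, against 3 of 19 on the X chromosome. The share of all annotated genes listed on each chromosome was not computed, so these counts have no background beside them. Chromosome I had 2 of 4, chromosome II 1 of 5, chromosome III 3 of 5 and chromosome IV 3 of 8. The median summed exon length was 637.5 bases for the 22 listed genes and 654.5 bases for the 32 that were not.

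The listed peptide genes had few reads. Over all 22, the sum was 304 reads in alg-2(ok304) and 125 reads in wild type, a relative log2 ratio of -0.28. In alg-2(ok304) 11 of them reached 10 reads over the 3 libraries, and in wild type 5 did. In at least 1 group 14 of the 22 reached 10 reads, beside 2885 of all 5739 listed genes. By this count the peptide genes were not low for the table. The median of the average log2 CPM was -2.27 for the peptide genes and -1.89 for all listed genes. The lowest value above 0 that the table held for a group was 0.853 reads in alg-2(ok304) and 0.942 in wild type, and flp-6, flp-7 and nlp-20 were below 1 read in wild type.

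Of the 22 genes, 5 (22.7%) were above 0 in alg-2(ok304) only, beside 31.9% of all listed genes. In wild type only, 1 (4.55%) was above 0, beside 5.14%. Another 3 (13.6%) were listed at 0 in both groups, beside 16.6%, and 13 were above 0 in both. Counting a gene as higher or lower at a relative log2 fold of 1 or more, with 0.5 reads added to each sum on the common scale, 9 of the 19 genes above 0 in a group (47.4%) were higher in alg-2(ok304), beside a background of 57.0%, and 4 (21.1%) were lower, beside 19.7%. None of these shares was far above its background. The median log2 fold was 0.80 over the 19 genes and 1.26 over all 4786 listed genes above 0 in a group. Both medians include genes at 0 in a group, for which the added 0.5 reads set the value. Over the genes above 0 in both groups the median log2 ratio was 0.46 for the 13 peptide genes and 0.37 for all 2659 genes.

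**Figure D2:**
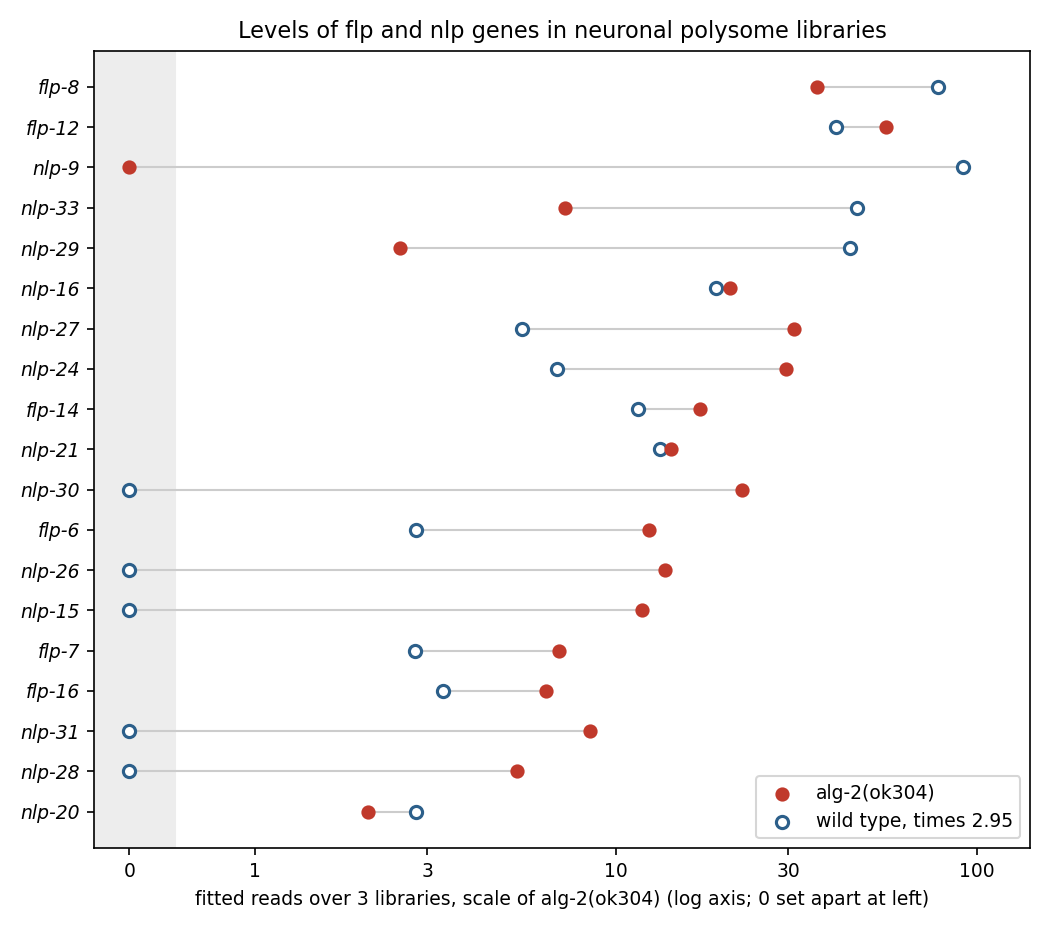
Reads summed over the 3 libraries of a group for the 19 peptide genes above 0, on a log axis with 0 set apart at the left. Filled points are alg-2(ok304) and open points are wild type multiplied by 2.95, so that equal levels coincide. The alg-2(ok304) points of nlp-24, nlp-27 and nlp-30 lie right of those of wild type, and the alg-2(ok304) points of nlp-9, nlp-29 and nlp-33 lie left of them.

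Among the FMRFamide-like genes, flp-8 and flp-12 had the most reads. The gene flp-8 (chromosome X, 14881419 to 14882267, WBcel235), known from the oxygen-sensing URX neurons among others, had 8.18, 9.60 and 18.4 reads in the alg-2(ok304) libraries and 6.73, 9.40 and 10.2 reads in the wild-type libraries. These columns overlapped before scaling, which depends on the library factors as well as on the group levels, and the sums of 36.1 and 26.3 reads gave a relative log2 ratio of -1.11, lower in alg-2(ok304), which turned to 1.57 when the totals of all genes set the scale. Exons of flp-8 share 21 bases with F31F6.11 on the opposite strand.

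The gene flp-12 (chromosome X, 4591281 to 4592350), known from head motor neurons, had 12.7, 14.9 and 28.4 reads in the alg-2(ok304) libraries and 3.51, 4.90 and 5.33 reads in the wild-type libraries. The columns of the groups did not overlap, but most of this gap was the common scale, and the relative log2 ratio was 0.46. The gene flp-14 (chromosome III, 12910510 to 12914783) had 3.86, 4.53 and 8.67 reads in alg-2(ok304) and 0.999, 1.396 and 1.52 reads in wild type, a ratio of 0.56. Neither ratio reached 1, and both changed sign under another scale.

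The gene flp-6 (chromosome V, 9471975 to 9473792), known from the chemosensory ASE neurons among others, had 2.80, 3.29 and 6.29 reads in the alg-2(ok304) libraries and 0.242, 0.337 and 0.367 reads in the wild-type libraries. It was higher in alg-2(ok304), with a relative log2 ratio of 2.15, and kept that direction under all 6 scales. Its log2 fold with 0.5 reads added was 1.86, and 0.92 with totals taken without ribosomal RNA genes and genes within 2 kb of them. Its wild-type sum of 0.945 reads was at the bottom of what the table held. The same was true of the wild-type sum of flp-7, whose peptides signal from the nervous system to control fat loss in the intestine, with 6.97 reads in alg-2(ok304), 0.943 in wild type and a ratio of 1.32. With 0.5 reads added, the log2 fold of flp-7 was 1.10, and it was between 0.19 and 0.97 under 3 other scales and 0.74 with 2 reads added. The gene flp-16 had 6.40 reads in alg-2(ok304) and 1.13 in wild type, a ratio of 0.95, and shares 14 exon bases with romo-1 on the opposite strand. In all, 2 of the 6 flp genes above 0 (33.3%) were higher, beside 57.0%, 1 (16.7%) was lower, beside 19.7%, and 3 were between. Under the other scales 0 to 6 were higher and 0 to 1 lower. The 7th listed gene, flp-9, was at 0 in both groups.

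In the genes nlp-1 to nlp-23, nlp-9 stood alone. This gene (chromosome V, 4219642 to 4222233) was listed at 0 in all 3 alg-2(ok304) libraries and at 7.91, 11.1 and 12.01 reads in the wild-type libraries. Its wild-type sum of 30.97 reads was the largest of any peptide gene in that group and would be 91.4 reads on the scale of alg-2(ok304). With a group listed at 0 and no counts behind it, no fold is given. It was the only peptide gene above 0 in wild type only.

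The gene nlp-16 (chromosome IV, 6255049 to 6259832) had 4.68, 5.49 and 10.5 reads in alg-2(ok304) and 1.64, 2.29 and 2.49 reads in wild type, and nlp-21 (chromosome III, 11388624 to 11393262) had 3.23, 3.79 and 7.24 reads in alg-2(ok304) and 1.14, 1.60 and 1.74 reads in wild type. Their relative log2 ratios were 0.13 and 0.11, the nearest to no change among the peptide genes, with signs that turned under other scales. Exons of nlp-21 share 46 bases with subs-4 on the opposite strand. The gene nlp-20 had 2.06 reads in alg-2(ok304) and 0.949 in wild type, a ratio of -0.45 that also turned. The gene nlp-15, of the orcokinin-like group, had 11.8 reads in alg-2(ok304) and was listed at 0 in wild type, where an equal level would give 4.01 reads. The listed genes nlp-4 and nlp-10 were at 0 in both groups.

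The genes nlp-24 to nlp-33 went both ways. All 8 listed genes (nlp-25 and nlp-32 were not listed) were past a log2 fold of 1 with 0.5 reads added. In alg-2(ok304) 6 (75%) were higher, beside a background of 57.0%, and 2 (25%) were lower, beside 19.7%. Of these, 4 were above 0 in alg-2(ok304) only, beside 31.9% of all listed genes. In these 4 the added 0.5 reads set the value, and no scale could turn their sign. The other 4 kept their sign under all 6 scales, although nlp-33 came to -0.01 when the totals of all genes set the scale, and nlp-24 came to 0.95, short of 1, with totals taken without ribosomal RNA genes and genes within 2 kb of them. The 8 genes summed to 120 reads in alg-2(ok304) and 35.1 in wild type, a relative log2 ratio of the sums of 0.22, which lay between -0.88 and 2.90 under the other scales. Their median log2 fold, 4 genes at 0 in wild type included, was 2.59, and 1.85 to 4.55 under the other scales. All 8 are on chromosome V.

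The gene nlp-29 (chromosome V, 3984425 to 3984847), the epidermal antimicrobial peptide gene best known for its induction by infection, had 0.573, 0.673 and 1.29 reads in the alg-2(ok304) libraries and 3.86, 5.39 and 5.86 reads in the wild-type libraries. The columns of the groups did not overlap, which the group sums and the library factors alone decide. The relative log2 ratio of -4.14 was the lowest among the 13 peptide genes above 0 in both groups, and stayed at -1.46 or below under all 6 scales. The gene nlp-33 (chromosome V, 11147346 to 11147737) went the same way, with 1.63, 1.92 and 3.67 reads in alg-2(ok304) and 4.03, 5.62 and 6.11 reads in wild type, and a ratio of -2.69.

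The genes nlp-27 and nlp-24 went the opposite way. The gene nlp-27 (chromosome V, 3989378 to 3989770) had 7.06, 8.28 and 15.8 reads in the alg-2(ok304) libraries and 0.475, 0.663 and 0.721 reads in the wild-type libraries, a relative log2 ratio of 2.51. It was the highest ratio among the 13 genes above 0 in both groups. The gene nlp-24 (chromosome V, 11616376 to 11616828) had 6.70, 7.86 and 15.04 reads in alg-2(ok304) and 0.595, 0.832 and 0.904 reads in wild type, a ratio of 2.11, and shares 24 exon bases with glb-15 on the opposite strand.

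Another 4 of these genes were above 0 in alg-2(ok304) only. The gene nlp-30 (chromosome V, 3981980 to 3982741) had 5.07, 5.95 and 11.4 reads in the alg-2(ok304) libraries, and nlp-26, nlp-31 and nlp-28 had sums of 13.7, 8.50 and 5.31 reads in alg-2(ok304). All 4 were listed at 0 in wild type. Levels equal to those in alg-2(ok304) would give 7.58, 4.65, 2.88 and 1.80 reads in wild type for nlp-30, nlp-26, nlp-31 and nlp-28, so these zeros lay 1.80 to 7.58 reads below an equal level. The gene nlp-26 shares 29 exon bases with Y43F8C.3 on the opposite strand.

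**Figure D3:**
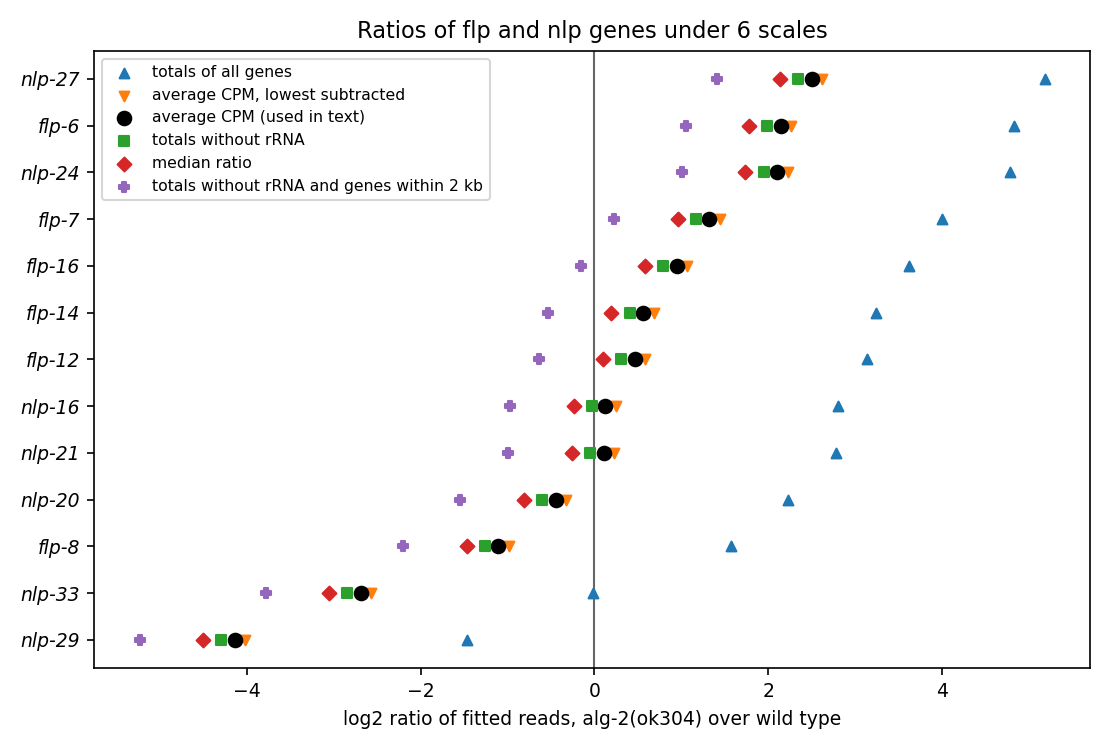
Log2 ratio of reads, alg-2(ok304) over wild type, for the 13 peptide genes above 0 in both groups (vertical axis), under the scale used here (black circles) and 5 others. A change of scale moves all genes by the same amount. Here nlp-27, flp-6, nlp-24 and flp-7 stay right of 0 and nlp-29 and nlp-33 stay at or left of 0, while the other 7 genes cross it.

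Of the 13 genes above 0 in both groups, 6 kept their direction under all 6 scales, 4 higher in alg-2(ok304) (flp-6, flp-7, nlp-24 and nlp-27) and 2 lower (nlp-29 and nlp-33). The other 7, flp-8, flp-12, flp-14, flp-16, nlp-16, nlp-20 and nlp-21, changed sign, as the plot of ratios by scale shows. Of these, flp-8 and nlp-20 turned only when the totals of all listed genes set the scale. For these 7 the direction between the groups was not fixed by the data. The same count over all 2659 genes above 0 in both groups was not made, so these counts have no background beside them. In the remaining 6 of the 19 genes, nlp-9, nlp-15, nlp-26, nlp-28, nlp-30 and nlp-31, a group was listed at 0, so the sign could not change with the scale.

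The 5 genes nlp-27 to nlp-31 lie next to each other on chromosome V, 3980055 to 3989770, in 9.716 kb and all on the same strand. All 5 were listed, and they summed to 69.9 reads in alg-2(ok304) and 16.96 reads in wild type. Of the wild-type reads, 15.1 were on nlp-29. Without it the sums were 67.4 reads in alg-2(ok304) and 1.86 in wild type. The level per kb of exon in alg-2(ok304) was 98.7 reads for nlp-27, 31.4 for nlp-30, 18.9 for nlp-31, 15.9 for nlp-28 and 7.15 for nlp-29. In wild type it was 42.7 reads for nlp-29, 5.88 for nlp-27 and 0 for the other 3. The gene nlp-29 was thus at the bottom in alg-2(ok304) and at the top in wild type, while nlp-27 was above nlp-28, nlp-30 and nlp-31 in both groups. The genes are related in sequence, and how reads that match several of them were counted is not given in the sources used here, so the division of reads among them is uncertain. As epidermal genes they are set beside the hypodermis markers above, of which 3 of the 7 above 0 (42.9%) were higher in alg-2(ok304), beside 57.0%, and 3 (42.9%) were lower, beside 19.7%. Under the other scales 1 to 5 were higher and 0 to 3 lower. Among these, sqt-3 had 79.7 reads in alg-2(ok304) and 283 in wild type, a ratio of -3.39, and dpy-7 had 49.5 and 2.86 reads, a ratio of 2.55, in the same order. The part of RNA from the epidermis in the nlp values was not tested.

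**Figure D4:**
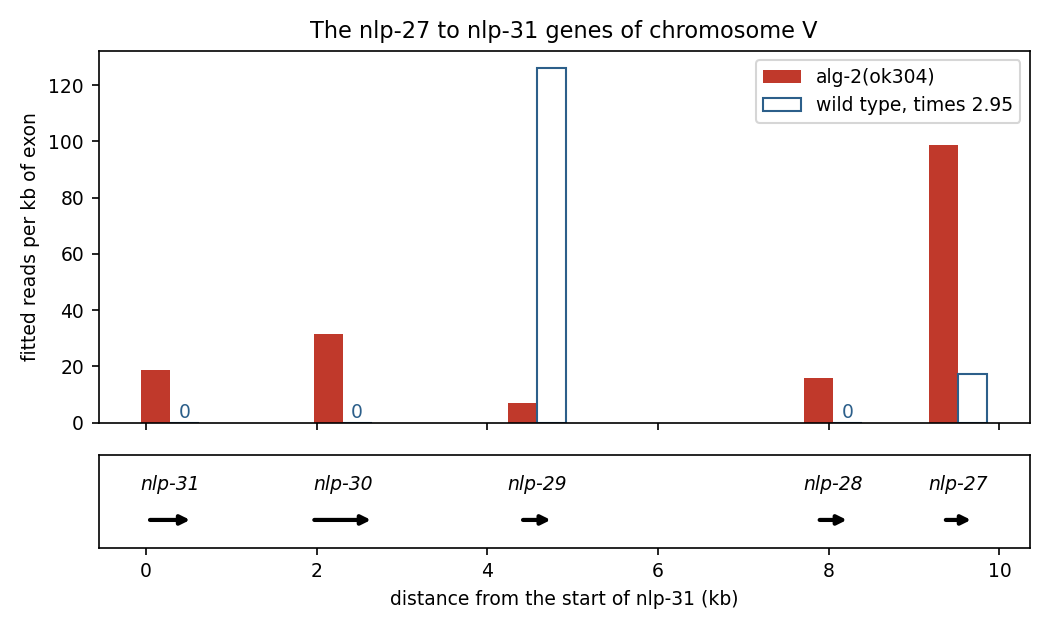
Reads per kb of exon over the 3 libraries of a group (vertical axis) for nlp-31, nlp-30, nlp-29, nlp-28 and nlp-27, placed by distance in kb from the start of nlp-31, with arrows for the genes and their strand. Filled bars are alg-2(ok304) and open bars are wild type multiplied by 2.95, which puts nlp-29 at 7.15 reads per kb in alg-2(ok304) against 126 in wild type.

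Per kb of exon, the 5 peptide genes with the highest levels in alg-2(ok304) were nlp-27 with 98.7 reads, nlp-24 with 78.5, flp-12 with 55.2, flp-8 with 50.6 and flp-14 with 35.8. In wild type they were nlp-33 with 45.8 reads per kb, nlp-29 with 42.7, nlp-9 with 41.4, flp-8 with 36.8 and flp-12 with 13.6. Only flp-8 and flp-12 were among the 5 in both groups. In wild type the first 4 lay close together and the step to flp-12 was the widest, whereas in alg-2(ok304) flp-14 was followed closely by nlp-26 with 35.2. Without a spread between replicates, it cannot be said which neighbours in these orders differ.

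Of the other identifiers in the ranges, nmy-1 had 33.9 reads in alg-2(ok304) and 23.6 in wild type, a relative log2 ratio of -1.04, and nmy-2 had 58.2 and 9.03 reads, a ratio of 1.13, in the same order. The gene nnt-1 had 6.10 reads in alg-2(ok304) and 2.35 in wild type, and nos-3, a Nanos-related gene of the germline, was at 0 in alg-2(ok304) and at 1.85 reads in wild type. They encode no known neuropeptide.

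Of 61 other peptide genes outside the ranges, 54 of which matched the annotation, 7 (11.5%) were listed, beside the 27.3% of all protein-coding genes. Of these, flp-27 had 34.5 reads in alg-2(ok304), ntc-1, which encodes nematocin, a relative of oxytocin and vasopressin, had 33.4, flp-22 had 21.6, nlp-43 had 11.7 and nlp-40 had 11.2, all listed at 0 in wild type. Thus 5 of the 7 listed genes were above 0 in alg-2(ok304) only, beside 31.9% of all listed genes, and the difference was not tested. The remaining members, flp-32 and nlp-50, were at 0 in both groups. Of the 40 insulin-like peptide genes none was listed (39 matched the annotation), beside the same 27.3%. Of the 11 caenacin genes, epidermal antimicrobial relatives of nlp-29, 3 were listed, with cnc-8 at 20.5 reads in alg-2(ok304) and 0 in wild type, cnc-4 at 2.60 and 0 reads, and cnc-3 at 0 reads in alg-2(ok304) and 7.12 in wild type. Like nlp-27 to nlp-31, these went both ways.

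Genes of peptide processing were listed in 9 of 13 cases (69.2%), beside 27.3%, although the prohormone convertase egl-3 was not. With 0.5 reads added, 7 of the 9 were higher in alg-2(ok304), beside 57.0%, and 0 were lower, beside 19.7%. Under the other scales 6 to 9 were higher and 0 to 2 lower. Of the 9, 6 were at 0 in wild type, where the added 0.5 reads set the value, beside 31.9% of all listed genes. The 3 above 0 in both groups had a median log2 ratio of -0.24, with cpd-1 at 2.35 and aex-5 at -0.80. By far the most reads were on pgal-1, an amidating lyase that completes the C-terminus, with 282 reads in alg-2(ok304) and 113 in wild type, a log2 ratio of -0.24. The amidating enzyme genes pghm-1 and pamn-1 had 30.3 and 13.5 reads in alg-2(ok304) and were at 0 in wild type. The peptidase gene nep-1 had 29.5 and 0 reads, and the carboxypeptidase gene cpd-1 had 14.8 and 0.985 reads, each with alg-2(ok304) before wild type. The carboxypeptidase gene egl-21, which most neuropeptides need, had 1.13 reads in alg-2(ok304) and was listed at 0 in wild type.

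For dense-core vesicle transport and release, 8 of 25 genes (32%) were listed, beside 27.3%. Of these, 4 (50%) were higher in alg-2(ok304), beside 57.0%, and 1 (12.5%) was lower, beside 19.7%, with 3 to 7 higher and 0 to 1 lower under the other scales. The shares were near those of all genes. The small GTPase gene unc-108 had 88.3 reads in alg-2(ok304) and 1.11 in wild type, unc-16 had 41.3 and 7.41, unc-18 had 25.7 and 0.952, unc-13 had 18.98 and 5.81, unc-116, a kinesin heavy chain gene, had 11.1 and 12.1, and eipr-1 had 10.7 and 0, in the same order of groups. The genes unc-31 and ida-1, which mark dense-core vesicle release in neurons, were not listed, nor was rab-3. Of 106 receptor genes for peptides, 102 of which matched the annotation, 3 (2.83%) were listed, beside 27.3%. Names without a match could not be listed. The insulin receptor gene daf-2 had 40.3 reads in alg-2(ok304) and 10.6 in wild type, a ratio of 0.36 that changed sign under another scale. The other 2 were the receptor gene pdfr-1, with 7.71 reads in alg-2(ok304) and 1.12 in wild type, and tkr-1, with 0 and 1.09 reads.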

How the data were processed

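Polysome immunoprecipitates of 6 L4 worm populations were sequenced. Per the labels and methods, the authors used cutadapt 2.10 for trimming, HISAT2 for alignment to WBcel235, featureCounts (Subread 2.0.0) for read counts on Ensembl genes, and edgeR 3.11. Whether counting used strand is not given in the sources used here. The deposited table holds fitted values per library, which have no unit beyond reads of the authors' model, and the authors' average log2 CPM. It also holds the authors' p-values and FDR for the comparison, which were not used. The planned edgeR test needs counts and was not run.

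For each gene, the 3 fitted values of a group were added up. The scale between groups was taken from the lowest average CPM per fitted read among genes at 0 in the other group with at least 100 fitted reads. The candidates were 16 genes in alg-2(ok304) and 2 genes in wild type, and in each group the gene with the lowest value alone set the scale. This estimator was fixed after the columns were seen. The computation was tested on simulated data in which many genes had no reads from further libraries in the average. Whether this holds for the candidate genes here is not known, so the simulation checks the code and not the scale. Folds for counts of genes used a pseudocount of 0.5 and a log2 bound of 1, and single ratios used none. Gene models came from Ensembl release 115. Rows were read with pandas 2.3.3 and plotted with matplotlib 3.10.9. Every peptide gene above 0 is named, with library values for the 12 with the most reads on the common scale. Genes of other lists are named by reads, up to 6 a list, and those named below 10 reads were chosen after their values were seen, as were hypodermis genes. The members and lists were chosen with earlier results of these data known. The alternatives were 5 other scales, 2 other pseudocounts, a filter at 10 reads and 2 other sets of members. The number of library columns left unused was 0.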

Additional observations from a re-analysis of the deposited data

Results flagged for a closer look

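The genes flp-9, nlp-4 and nlp-10 were listed at 0 in all 6 library columns, yet the average log2 CPM in the same table was -2.92 for flp-9, -2.24 for nlp-4 and -3.68 for nlp-10. The average is a column of its own beside the library columns, from which the levels and ratios above were taken, and these averages are above the table's lowest of -4.08. In all, 953 genes were at 0 in every library column, with averages from -3.96 to 1.77 and a median of -2.34. The order of the averages also departed from that of the reads among peptide genes above 0. The gene nlp-28, with 5.31 reads in alg-2(ok304) and 0 in wild type, had an average of -2.70. The gene nlp-26, with 13.7 and 0 reads, had a lower average of -3.48.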

How the results depend on the processing

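No paired analysis was possible because the library columns hold no variation between replicates, and for the same reason the fits that leave out each replicate in turn were not run. With the totals of all listed genes as the scale, 16 peptide genes were higher and 2 lower in alg-2(ok304), the median log2 fold was 3.07 and flp-8 turned to 1.54 with the pseudocount. The median was -0.13 with totals without ribosomal RNA genes and genes within 2 kb, 0.49 with the median ratio of genes above 0 in both groups, and 0.49 with only genes of at least 10 reads in a group. Without nlp-27 to nlp-31, an alternative added after seeing the data, 5 genes were higher and the median was 0.49. Other counts stayed within 1.5 times, including those with the lowest average CPM subtracted and with all genes of the identifier ranges, both also added after seeing the data. Per kb of coding sequence, 4 of the 5 leading genes stayed in alg-2(ok304) and 5 of 5 in wild type. With no counts and sums of a few reads, small ratios were not resolved.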
